A study of Mus musculus with 35 samples.

Results

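Beta 1 integrins that bind collagen or fibronectin were followed by RNA-seq of healing mouse skin wounds. They comprise 7 genes: the collagen-binding alpha subunits Itga1, Itga2, Itga10 and Itga11, the fibronectin or RGD-binding alpha subunits Itga5 and Itga8, and Itgb1, the beta chain that they share. They were chosen by name among the 22831 gene symbols of each of 2 deposited count tables, and all 7 had counts in every one of the 35 wounds. The first table held day 14 wounds of 7 WT mice, 7 Col5a1CKO mice and 3 Col5a1CKO mice given WT fibroblasts in the wound bed on day 3, and day 19 wounds of 3 WT and 3 Col5a1CKO mice. The study lists 7 WT and 7 Col5a1CKO mice of day 14 as given vehicle in its fibroblast experiment. Untreated below means not given fibroblasts. The second table held day 14 wounds of 4 WT mice on vehicle, 4 Col5a1CKO mice on vehicle and 4 Col5a1CKO mice on cilengitide, a cyclic peptide inhibitor of alpha v integrins given daily at 20 mg/kg by intraperitoneal injection. All mice carried floxed Col5a1 (Col5a1 fl/fl), were male or female and 8 to 12 weeks of age, and received tamoxifen around the time of a full-thickness dorsal excision. Col5a1CKO mice also carried Col1a2CreERT, which deletes the gene in Col1a2-expressing cells such as fibroblasts and not in other cells of the wound, and WT mice were littermates without Cre. RNA came from all cells of a 6 mm punch at the centre of the wound or scar, not from the whole wound bed. Fewer cells of a type and less RNA per cell cannot be told apart in such samples.

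Integrins are heterodimers of an alpha and a beta chain that link the extracellular matrix to the actin cytoskeleton and signal through talin, kindlins, focal adhesion kinase and other adaptors. The alpha chain sets the ligand. Alpha 1, alpha 2, alpha 10 and alpha 11 carry an inserted I domain that binds collagens, whereas alpha 5 and alpha 8 bind the RGD sequence, alpha 5 in fibronectin and alpha 8 in nephronectin, fibronectin and other proteins. In skin, alpha 11 is a receptor of fibroblasts for fibrillar collagen, alpha 1 is found on fibroblasts, smooth muscle, endothelium and some T cells, alpha 2 on keratinocytes and platelets, and alpha 10 mainly in cartilage. Alpha 5 beta 1 is the classic receptor with which cells pull fibronectin into fibrils, and keratinocytes and endothelium use it in wounds too.

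The libraries of the first table held between 15043838 and 35702566 counts and those of the second between 51211643 and 68266808. Col5a1, the deleted gene, was 41.0 to 286 RPKM in the day 14 WT wounds and 20.4 to 79.4 RPKM in the day 14 Col5a1CKO wounds, with log2 fold changes of -1.43, -1.70 and -1.17 at day 14, day 19 and on vehicle, none of which passed the test. The titles place the WT fibroblasts in the 3 day 14 wounds named above and were followed, but a treatment tag places them in the 3 day 19 Col5a1CKO wounds, so the results of both groups rest on the titles. The first table fell into 2 sets of libraries by the difference in level between GC-rich and GC-poor genes. The lower set (-2.32 to -1.28 on the log2 scale) held replicates a, b, c and d of the day 14 WT group and a, b, c, d and e of the day 14 Col5a1CKO group, and the upper set (0.29 to 0.97) held the rest. In the second table this difference was -0.58 to -0.30 in the Col5a1CKO vehicle wounds, -0.01 to 0.12 in the WT vehicle wounds and -0.21 to 0.11 in the cilengitide wounds. In the upper set of day 14, the 3 WT wounds had the Y-linked Ddx3y at 60.0 to 70.0 CPM and the 2 Col5a1CKO wounds had Xist at 279 and 741 CPM, so that sex and genotype cannot be told apart there. The markers of skin were present: basal keratinocyte markers summed to 8702 CPM or more in the day 14 WT wounds, and those of fibroblasts to 4739 CPM or more.

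Levels below are RPKM after TMM normalization within a table, on a linear scale, corrected for gene length but not for GC content. The GC content of the members ran from 43.8% for Itgb1 to 57.55% for Itga5. Ratios between genes differed with the library set. In day 14 WT wounds Itgb1 over the summed alpha chains was 4.66 to 8.18 in the lower and 2.41 to 3.71 in the upper set. The part of GC content in this was not tested. Itgb1 was the most abundant member in every group by median, followed by Itga5 and then Itga11. The median of Itgb1 was 168 RPKM in day 14 WT and 348 in day 14 Col5a1CKO wounds, and its range did not overlap with that of Itga5 in any group other than the day 19 WT wounds. Behind it, Itga5 had medians of 16.5 to 149 RPKM over the 8 groups. Itga11 had medians of 5.44 to 52.7 RPKM, and its range overlapped with that of Itga5 in the 3 WT groups and in none of the 5 Col5a1CKO groups. Itga1 had medians of 1.71 to 10.5 RPKM and Itga2 of 1.19 to 3.62 RPKM. Itga8 had medians of 0.21 to 2.13 RPKM and Itga10 of 0.27 to 2.63 RPKM, and by median Itga2 lay below Itga8 in the day 14 and vehicle Col5a1CKO wounds and below Itga10 in both day 19 groups. The ranges of Itga8 and Itga10 overlapped in 5 groups. Itga8 lay wholly above Itga10 in the Col5a1CKO wounds on vehicle and on cilengitide, and wholly below it in the day 19 WT wounds.

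**Figure D1:**
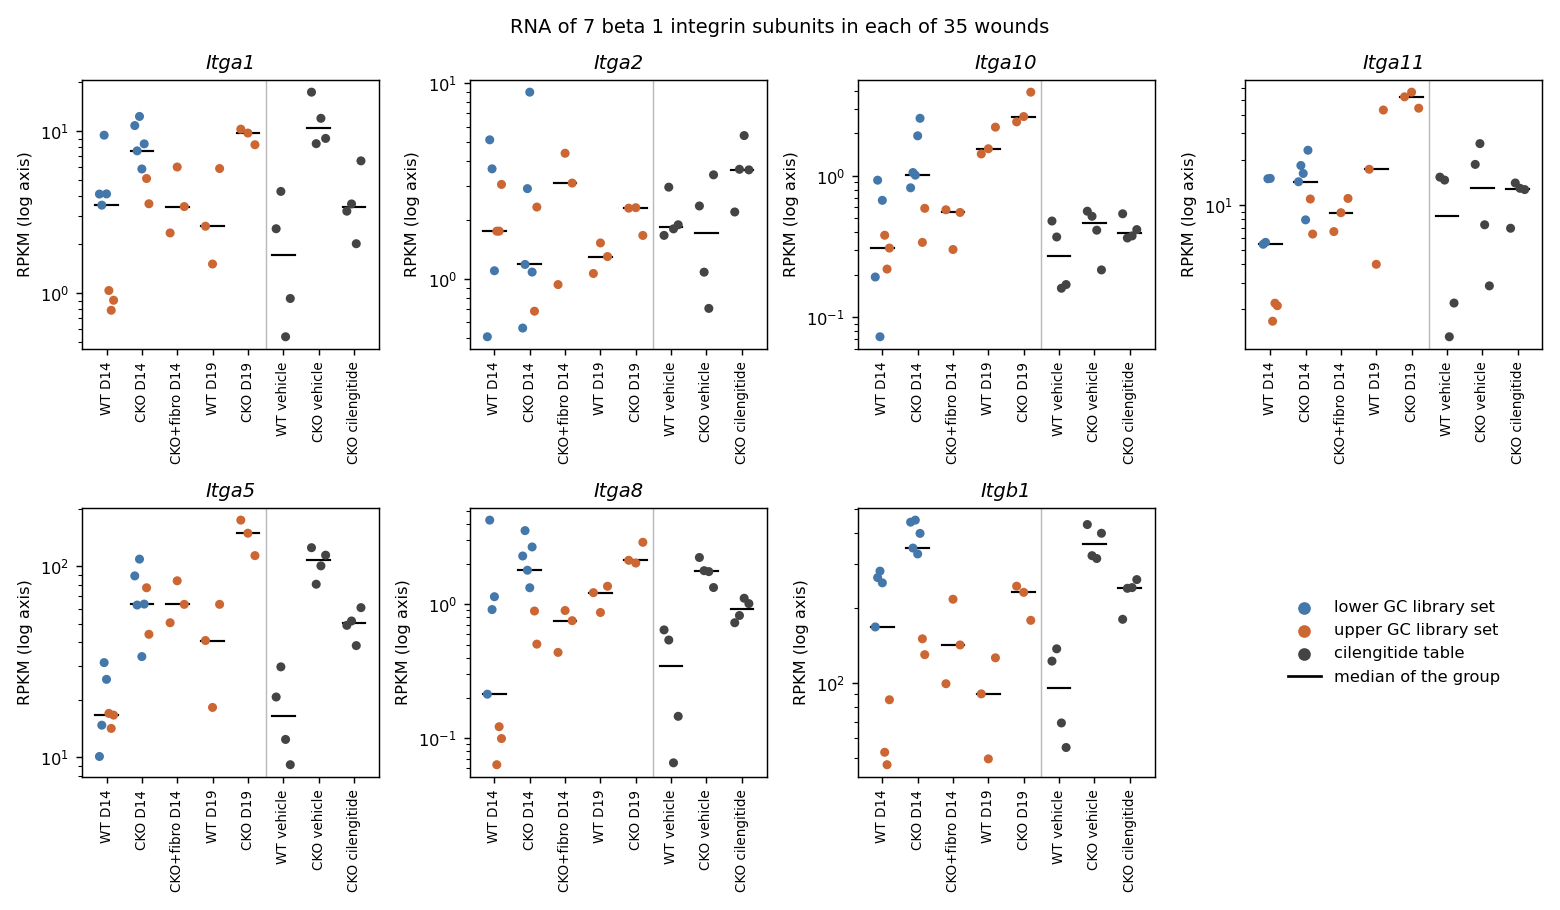
Normalized RPKM (log axis) of each member in each of the 35 wounds by group, with the group's median as a bar and colours for the 2 library sets of the first table and for the cilengitide table, whose levels were normalized separately. Itgb1 and Itga5 lie highest, and the Col5a1CKO vehicle wounds lie above all WT vehicle wounds for Itga1, Itga5, Itga8 and Itgb1.

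The promoters of Itga5 and Itgb1, the pair that forms the fibronectin receptor and the 2 members with the highest RNA, are shown because these genes had similar profiles over the wounds. Each is the 250 bases before the gene's start in RefSeq on GRCm38.p6, a later build than that of the counts, read 5′ to 3′ on the gene's strand. Capitals mark the SP1-type box GGGCGG and the TEAD-type site GGAATG on either strand.
Itga5, chr15:103366792-103367041, minus strand: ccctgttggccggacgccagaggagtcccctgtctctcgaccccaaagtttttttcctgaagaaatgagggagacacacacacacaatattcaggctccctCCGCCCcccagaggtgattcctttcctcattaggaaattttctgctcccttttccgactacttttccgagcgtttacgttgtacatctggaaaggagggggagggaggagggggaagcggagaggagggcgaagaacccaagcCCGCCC
Itgb1, chr8:128685404-128685653, plus strand: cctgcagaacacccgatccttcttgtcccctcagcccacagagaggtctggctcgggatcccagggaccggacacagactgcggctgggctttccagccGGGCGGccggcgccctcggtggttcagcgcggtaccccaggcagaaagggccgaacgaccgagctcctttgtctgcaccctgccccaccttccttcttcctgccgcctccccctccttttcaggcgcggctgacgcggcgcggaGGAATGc
The Itga5 window held GGGCGG 2 times and the Itgb1 window 1 time, and of the other 5 members none held it, while 32.7% of 32851 such windows did. The site GGAATG occurred in the windows of Itgb1 and Itga10 and in 12.6% of all windows. The AP-1-type site TGANTCA, present in 6.75% of all windows, and the CArG box of serum response factor, present in 1.47%, were in none of the 7. The motifs searched do not overlap each other in these windows, and a match is a run of letters, not a bound site.

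The first comparison asks how the receptors differ between day 14 wounds of mice with and without the Col1a2CreERT-driven deletion of Col5a1. Itga5 was the member that rose. Its normalized RPKM had a lowest, median and highest value of 10.1, 16.6 and 31.3 in the 7 WT wounds and of 33.6, 63.3 and 109 in the 7 Col5a1CKO wounds. Every Col5a1CKO wound lay above every WT wound, as was so for 2.31% of all tested genes. The log2 fold change was 1.90 (SE 0.30, adjusted p = 0.00421 by the quasi-likelihood test of edgeR, adjusted after Benjamini and Hochberg). Itga5 was the 1 member of 7 called higher, against 5.57% of the 14368 genes tested, and no member was called lower. The gene lies on chr15:103174720-103197194 of NCBI37/mm9, minus strand, and the counts cover its exons. In the lower set of libraries Itga5 was 10.1, 14.7, 31.3 and 25.5 RPKM in WT and 89.0, 62.6, 109, 33.6 and 63.3 RPKM in Col5a1CKO wounds, a log2 fold change of 1.80 (adjusted p = 0.0267), where 3.68% of genes were called higher. In the upper set it was 16.9, 14.1 and 16.6 RPKM in WT and 77.2 and 44.0 RPKM in Col5a1CKO wounds, a log2 fold change of 2.03 (adjusted p = 0.0373).

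Itgb1 (chr8:131209554-131257100, plus strand) showed how the sets bear on the other members. Its lowest, median and highest values were 47.0, 168 and 281 RPKM in the WT and 130, 348 and 450 RPKM in the Col5a1CKO wounds, and the groups overlapped. Its log2 fold change of 0.95 (SE 0.46, adjusted p = 0.193) did not pass the test. In the lower set alone the WT wounds held 168, 265, 281 and 252 RPKM and the Col5a1CKO wounds 442, 348, 450, 329 and 398. Among the upper set's wounds the WT values were 52.7, 47.0 and 85.7 RPKM and the Col5a1CKO values 150 and 130. In both genotypes Itgb1 was lower in the upper set, and WT wounds of the lower set lay above Col5a1CKO wounds of the upper set. The log2 fold change was 0.69 (adjusted p = 0.0471) in the lower set, 1.27 (adjusted p = 0.0742) in the upper set and 0.88 (adjusted p = 0.00485) with the set as a covariate. None of these values reached both the p and the 2-fold limit.

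**Figure D2:**
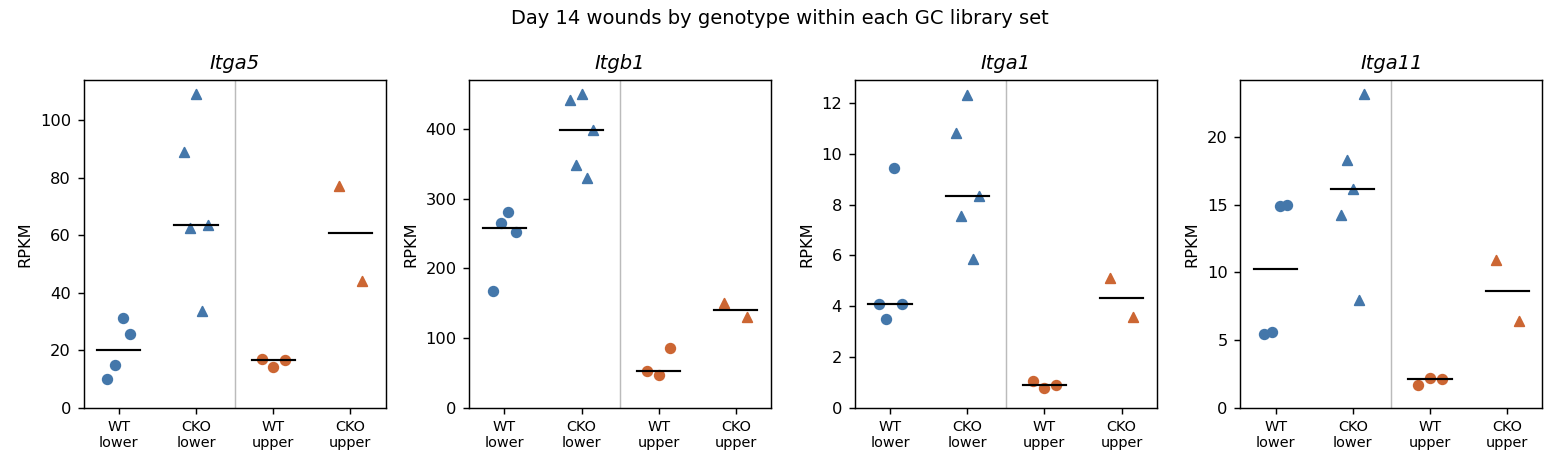
Normalized RPKM of Itga5, Itgb1, Itga1 and Itga11 in the day 14 wounds, on linear axes from 0, with WT (circles) and Col5a1CKO wounds (triangles) side by side within the lower and the upper library set and bars at medians. Itgb1 is lower in the upper set in both genotypes, whereas the Itga5 levels of the upper set, 14.1 to 16.9 RPKM in WT and 44.0 to 77.2 RPKM in Col5a1CKO wounds, lie within the range of the lower set.

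Of the collagen-binding alpha subunits, Itga1 and Itga11 had larger log2 fold changes in the upper than in the lower set at day 14 and Itga10 a smaller one, and these contrasts between the sets were not tested. Itga1 (chr13:115748287-115892172, minus strand) had a lowest, median and highest value of 0.78, 3.49 and 9.45 RPKM in WT and of 3.56, 7.57 and 12.3 RPKM in Col5a1CKO wounds, and the groups overlapped. Its log2 fold change was 1.15 (SE 0.52, adjusted p = 0.167), and 2.35 (adjusted p = 0.0370) in the upper set, where the WT wounds held 1.04, 0.78 and 0.90 RPKM and the Col5a1CKO wounds 5.11 and 3.56. In the lower set it was 0.75 (adjusted p = 0.188). Itga11 (chr9:62525633-62631789, plus strand) was 1.67, 5.44 and 15 RPKM in WT and 6.37, 14.3 and 23.2 RPKM in Col5a1CKO wounds as lowest, median and highest value, and its log2 fold change was 1.04 (SE 0.51, adjusted p = 0.200). It was 2.21 (adjusted p = 0.0370) in the upper and 0.63 (adjusted p = 0.332) in the lower set. Itga10 (chr3:96449507-96468442, plus strand), at 0.07, 0.31 and 0.93 RPKM in WT and 0.34, 1.01 and 2.56 RPKM in Col5a1CKO wounds, had an SE of 0.59 on its log2 fold change of 1.57 (adjusted p = 0.104). It was 0.71 (adjusted p = 0.282) in the upper and 1.64 (adjusted p = 0.218) in the lower set. The cartilage markers Col2a1, Acan and Matn1 together did not exceed 0.59 CPM in these WT and 4.22 CPM in these Col5a1CKO wounds. Itga2 (chr13:115626124-115722249, minus strand) had nearly the same mean in both genotypes, 2.42 ± 1.61 RPKM (SD, n = 7) for WT and 2.53 ± 2.98 RPKM (SD, n = 7) for Col5a1CKO mice, with a log2 fold change of 0.06 (SE 0.64, adjusted p = 0.962), -0.44 in the upper and 0.17 in the lower set. One Col5a1CKO wound, replicate d, held 9.0 RPKM.

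Itga8 (chr2:12028259-12223547, minus strand), the nephronectin receptor chain, was 0.06, 0.21 and 4.26 RPKM in WT and 0.50, 1.80 and 3.56 RPKM in Col5a1CKO wounds as lowest, median and highest value. The groups overlapped, and the log2 fold change of 0.91 (SE 0.84, adjusted p = 0.506) did not pass the test. In the upper set the WT wounds held 0.06, 0.12 and 0.10 RPKM, from 8 to 21 counts each, and the Col5a1CKO wounds 0.89 and 0.50 RPKM, for a log2 fold change of 2.96 (adjusted p = 0.0398). In all, 4 members were called higher in the upper set (Itga1, Itga5, Itga8 and Itga11), against 8.81% of genes, and 3 with the set as a covariate (Itga1, Itga5 and Itga11), against 9.04%. The median log2 fold change of the 7 members was 1.04 over all libraries, 2.03 in the upper and 0.69 in the lower set, beside -0.03, 0.0041 and 0.10 for all genes tested.

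Markers of other cells moved with genotype at day 14 as well. Leukocyte markers were called higher for 4 of 5 genes, endothelial markers for 3 of 5, fibroblast markers for 3 of 7 and mural and smooth muscle markers for 2 of 6. The summed basal keratinocyte markers ranged from 8702 to 45713 CPM in WT and from 14.7 to 22647 CPM in Col5a1CKO wounds, with 0 of 4 genes called (median log2 fold change -1.78). The endothelial sum was 61.9 to 216 CPM without and 216 to 525 CPM with the deletion, and the leukocyte sum 126 to 330 and 397 to 1839 CPM. None of these lists had a gene at 0 in a whole group. Their part in the integrin values was not tested.

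At day 19 the levels of the 2 genotypes did not overlap for any of the 7 members, and the Col5a1CKO wounds were the higher, as was so for 16.4% of tested genes, in a comparison of 3 against 3 wounds that all belonged to the upper set. None passed edgeR's test, which called 0.0198% of 15136 genes in either direction. Itga5 was 40.8, 18.2 and 63.2 RPKM in the WT wounds and 174, 149 and 114 RPKM in the Col5a1CKO wounds, a log2 fold change of 1.88 (SE 0.53, adjusted p = 0.139). Itgb1 was 90.4, 49.6 and 126 RPKM against 245, 231 and 178 RPKM, a log2 fold change of 1.34 (SE 0.44, adjusted p = 0.159). Itga1 was 2.59, 1.51 and 5.88 RPKM against 10.3, 9.74 and 8.25 RPKM, a log2 fold change of 1.54 (SE 0.53, adjusted p = 0.170). Among the WT wounds, replicate c lay closest to the Col5a1CKO wounds and replicate b farthest from them for Itga1, Itga5, Itga11 and Itgb1. Itga11 was 17.3, 4.0 and 43.0 RPKM in WT and 52.7, 56.6 and 44.2 RPKM in Col5a1CKO wounds, so that WT replicate c came close to the other group, with a log2 fold change of 1.28 (SE 0.80, adjusted p = 0.346). For Itga8, Itga10 and Itga2 the log2 fold changes were 1.09 (adjusted p = 0.132), 0.84 (adjusted p = 0.172) and 0.76 (adjusted p = 0.157). At an unadjusted p under 0.05 and 2-fold, Itga1, Itga5, Itga8 and Itgb1 would be called, and DESeq2 with its own adjustment called the same 4 members, against 4.52% of genes called higher by it. The unadjusted limit called 815 of the 15136 genes higher. The genotype difference itself did not pass a test of its change between the days: the interaction log2 values ran from -0.74 for Itga10 to 0.66 for Itga2, with an adjusted p of 0.9999 for each member and 0% of 15955 genes called. Of these genes 280 and 437 had a positive or negative interaction at an unadjusted p under 0.05 and 2-fold, and DESeq2 called 24 and 16. The summed fibroblast markers were 8675 to 74656 CPM in the day 19 WT and 73448 to 100699 CPM in the day 19 Col5a1CKO wounds. The endothelial sum was 252 to 528 against 579 to 889 CPM and the mural sum 478 to 673 against 1780 to 3018 CPM, and their part was not tested. All 3 Col5a1CKO wounds and WT replicates b and c had Xist at 484 CPM or more, and WT replicate a had Ddx3y at 42.5 CPM.

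**Figure D3:**
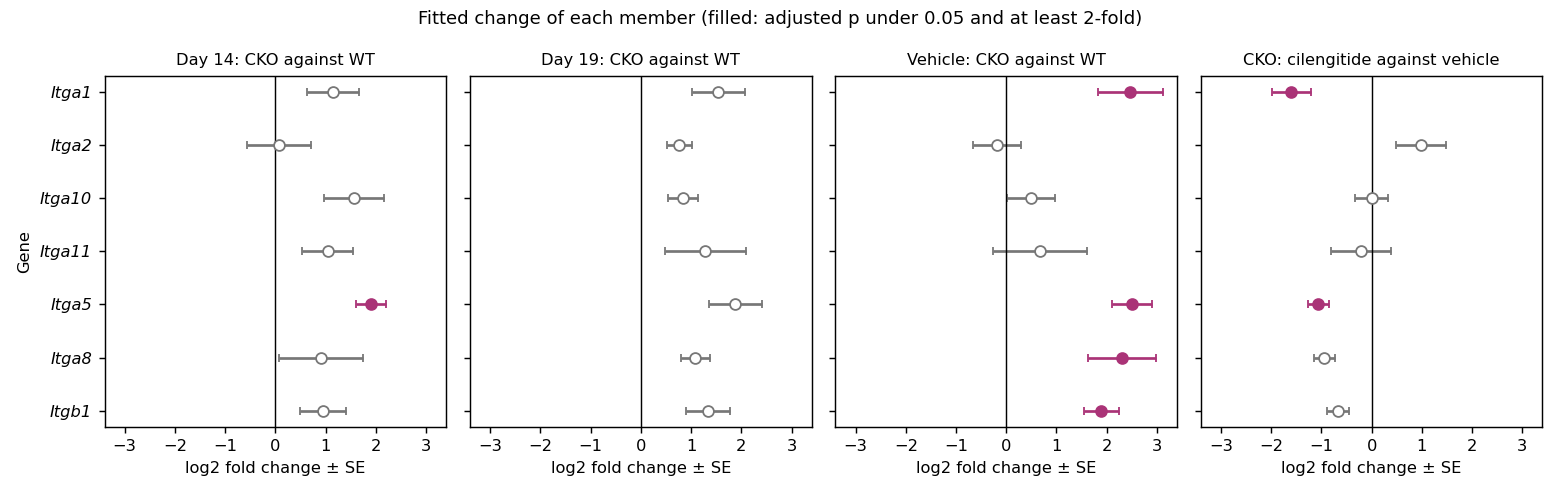
Log2 fold change of each member from edgeR with its standard error in 4 comparisons, with filled points for an adjusted p under 0.05 and at least 2-fold. Itga5 is filled at day 14, in the vehicle comparison and, to the left of 0, in the cilengitide comparison, whereas no member is filled at day 19.

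Time was compared within each genotype. From day 14 to day 19 Itga11 rose in the Col5a1CKO wounds, from 6.37, 14.3 and 23.2 RPKM (lowest, median and highest of 7) to 52.7, 56.6 and 44.2 RPKM, with no overlap and a log2 fold change of 1.87 (SE 0.34, adjusted p = 0.0157). It was the 1 member called, where 1.87% of 15328 genes were called higher. Itga5 did not overlap between the days either, and 7.66% of tested genes were likewise wholly higher at day 19. The call of Itga11 was lost without any 1 of the 3 day 19 Col5a1CKO wounds (log2 fold changes of 1.80 to 1.98, adjusted p = 0.0682 to 0.0992). These fits called few genes in all, 0 without replicate a or b, and 12 higher and 9 lower without c. The fit of all libraries called 287 higher and 590 lower. Only 2 of the 7 day 14 Col5a1CKO wounds belonged to the upper set, as all day 19 wounds did. Within that set the log2 fold change of Itga11 was 2.60 (adjusted p = 0.0786), and 0 of 15241 genes were called. Itga5 had a log2 fold change of 1.08 (adjusted p = 0.0689) and Itgb1 of -0.57 (adjusted p = 0.422) over all libraries, where the median of all genes was -0.12. Among the cell type markers Col1a1 (1.59), the endothelial Cdh5 (1.07) and Tie1 (1.25) and the mural Cspg4 (2.17) were called higher along with Itga11, and their part was not tested.

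In the WT wounds 0 of the 7 members passed the test between the days, whereas 5.74% of 15181 genes were called in either direction. The log2 fold changes were 2.16 for Itga10 (adjusted p = 0.111), 1.73 for Itga11 (adjusted p = 0.222) and 1.21 for Itga5 (adjusted p = 0.113), and at an unadjusted p under 0.05 Itga5 and Itga10 would be called, as they were by DESeq2. Of all genes, 1052 were higher and 1741 lower at the unadjusted limit, and DESeq2 called 653 higher and 1316 lower. Within the upper set, which holds the 3 WT wounds e to g of day 14 and all 3 of day 19, 4 members were called higher, against 14.2% of genes. There Itga8 was 0.06, 0.12 and 0.10 RPKM on day 14 and 1.22, 0.87 and 1.36 RPKM on day 19 (log2 fold change 3.73, adjusted p = 0.00404). Itga10 went from 0.38, 0.22 and 0.31 RPKM to 1.43, 1.56 and 2.21 RPKM (log2 fold change 2.66, adjusted p = 0.00595). Itga11, at 1.67, 2.20 and 2.12 RPKM on day 14, had a log2 fold change of 3.61 (adjusted p = 0.0253), and Itga1 of 2.04 (adjusted p = 0.0345). Of the markers of other cells, the cartilage gene Acan (log2 fold change 5.57) and the endothelial gene Cdh5 (1.69) were called higher over all WT wounds of the 2 days, and the summed cartilage markers were at most 0.59 CPM on day 14 and 2.57 to 6.71 CPM on day 19. Their part was not tested. The day 14 wounds of the set all had Ddx3y and only replicate a of day 19 did, and the part of sex was not tested.

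Transfer of WT fibroblasts addressed whether cells that make type V collagen alter the Col5a1CKO wound. Against untreated Col5a1CKO wounds of the same day 0 of the 7 members passed the edgeR test, and 0% of 15660 genes did. DESeq2 called 0 members too, and 9 genes higher and 10 lower. At an unadjusted p under 0.05 and 2-fold 37 genes were higher and 854 lower, with Itga8 and Itgb1 among the latter. Itgb1 was 99.3, 217 and 142 RPKM in the fibroblast-treated wounds, below the median of 348 RPKM of the untreated wounds, with a log2 fold change of -1.07 (SE 0.46, adjusted p = 0.379). Itga8 had -1.42 (SE 0.57, adjusted p = 0.365) and Itga1 -0.96 (SE 0.42, adjusted p = 0.379). Col5a1 itself was 19.7, 35.4 and 43.9 RPKM in the wounds titled as treated, a log2 fold change of -0.52 (SE 0.42, adjusted p = 0.571) against the untreated wounds. All 3 fibroblast-treated libraries belonged to the upper set. Against the 2 untreated Col5a1CKO wounds of that set, at 150 and 130 RPKM, the log2 fold change of Itgb1 was 0.18 (SE 0.39), and that of Itga8 was 0.05 (SE 0.46) and of Itga1 -0.09 (SE 0.43). Itga5 was 50.6, 83.9 and 63.1 RPKM with fibroblasts and had a log2 fold change of -0.05 (SE 0.35, adjusted p = 0.950) over all libraries.

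Against the day 14 WT wounds, which also served as controls of the untreated Col5a1CKO wounds, Itga5 rose in the fibroblast-treated wounds with a log2 fold change of 1.98 (SE 0.32, adjusted p = 0.00510). All 3 values lay above the 31.3 RPKM of the highest WT wound, and 9.92% of tested genes were separated in this direction. Itga5 was the 1 member called, where 3.77% of 15318 genes were called higher. Within the upper set 5 members were called higher, against 19.8% of genes. Their log2 fold changes were 3.0 for Itga8 (adjusted p = 0.00160), 2.29 for Itga11 (adjusted p = 0.000518), 2.26 for Itga1 (adjusted p = 0.00224), 2.20 for Itga5 (adjusted p = 0.000441) and 1.45 for Itgb1 (adjusted p = 0.0133). Over all libraries leukocyte markers were called higher for 4 of 5 genes (median log2 fold change 1.91) and endothelial markers for 2 of 5 (1.88), and their part was not tested. The 3 WT wounds of the upper set had Ddx3y and the 3 fibroblast-treated ones Xist at 280 to 555 CPM.

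The cilengitide experiment repeated the genotype comparison on vehicle with deeper libraries. Here 4 of the 7 members rose in the Col5a1CKO wounds, Itga1, Itga5, Itga8 and Itgb1, against 17.5% of 15435 genes called higher. Itga5 was 20.6, 29.7, 12.4 and 9.12 RPKM in the 4 WT wounds and 125, 80.5, 100.5 and 114 RPKM in the 4 Col5a1CKO wounds, a log2 fold change of 2.50 (SE 0.39, adjusted p = 0.00212). Itgb1 was 122, 137, 69.1 and 55.1 RPKM in WT and 432, 324, 316 and 399 RPKM in Col5a1CKO wounds, a log2 fold change of 1.90 (SE 0.36, adjusted p = 0.00417). In neither gene did the groups overlap. Itga1 was 2.50, 4.25, 0.54 and 0.93 RPKM in WT and 17.4, 8.38, 12 and 9.03 RPKM in Col5a1CKO wounds, a log2 fold change of 2.47 (SE 0.64, adjusted p = 0.0158). Itga8 was 0.64, 0.54, 0.07 and 0.15 RPKM in WT and 2.24, 1.78, 1.76 and 1.33 RPKM in Col5a1CKO wounds, a log2 fold change of 2.31 (SE 0.68, adjusted p = 0.0243). The call of Itga8 was lost without WT replicate 4 or without Col5a1CKO replicate 1 or 3 (adjusted p = 0.0509 to 0.0615). Each of these 4 genes was separated between the groups, as were 24.1% of all tested genes in the same direction.

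The other 3 members overlapped between the genotypes on vehicle. Itga11, the fibroblast collagen receptor, was 15.3, 14.6, 1.31 and 2.20 RPKM in WT and 18.6, 25.6, 7.35 and 2.87 RPKM in Col5a1CKO wounds, with a log2 fold change of 0.67 (SE 0.94, adjusted p = 0.577). The spread within both groups was wide. WT replicates 3 and 4, which were low in Itga11, were also the lowest WT wounds for Itga1, Itga5, Itga8, Itga10, Itgb1 and Col5a1. Itga10 had a log2 fold change of 0.50 (SE 0.47, adjusted p = 0.409) and Itga2 of -0.19 (SE 0.48, adjusted p = 0.762). Leukocyte markers were called higher for 4 genes and lower for 1 of 5, and their sum was 98.2 to 182 CPM in the WT wounds against 905 to 3714 CPM. Basal keratinocyte markers were called lower for 2 of 4, with a sum of 12643 to 20887 CPM on one side and 49.4 to 10340 CPM on the other, and fibroblast markers were called higher for 3 of 7. For endothelial markers the sum was 47.8 to 329 CPM against 367 to 894 CPM, with 2 of 5 called higher. The mural sum was 128 to 547 CPM against 1094 to 2493 CPM, with 2 of 6 called higher. WT replicates 1 and 3 had Xist at 139 and 167 CPM, while none of the Col5a1CKO vehicle wounds exceeded 1.56 CPM and replicate 2 had 0 CPM of Ddx3y as well. The part of these cells, of sex, and of the GC difference between the 2 groups given above, was not tested.

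Cilengitide is known for blocking alpha v integrins and, more weakly, alpha 5 beta 1, and its comparison with vehicle asks how the wound differs when these receptors are blocked. Itga1 and Itga5 fell, the 2 members called of 7, where 6.59% of 15564 genes were called lower, and no member rose. Itga5 was 49.0, 51.7, 38.4 and 60.7 RPKM in the 4 cilengitide wounds, all below the 80.5 RPKM of the lowest vehicle wound, with a log2 fold change of -1.06 (SE 0.21, adjusted p = 0.0123). Itga1 was 3.21, 3.56, 2.02 and 6.56 RPKM, again all below the lowest vehicle wound at 8.38 RPKM, with a log2 fold change of -1.60 (SE 0.39, adjusted p = 0.0240). Itga8 was 0.73, 0.82, 1.11 and 1.01 RPKM with a log2 fold change of -0.94 (SE 0.21, adjusted p = 0.0170), which passed the p but not the 2-fold limit. Itgb1 was 180, 240, 241 and 260 RPKM with a log2 fold change of -0.67 (SE 0.22, adjusted p = 0.0608). All 4 of these genes were lower in every cilengitide wound than in every vehicle wound, as were 13.4% of tested genes. Itga11 and Itga10 had log2 fold changes of -0.22 (SE 0.60) and -0.00 (SE 0.33), and Itga2 of 0.98 (SE 0.50, adjusted p = 0.182).

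Neither call on cilengitide was held by every leave-one-out fit. Itga5 stayed past the p limit and dropped to a log2 fold change of -0.92 without vehicle replicate 1 and -0.90 without cilengitide replicate 3, under 2-fold. Itga1 kept a log2 fold change of -1.34 to -1.59 but had adjusted p = 0.0513 to 0.0715 without vehicle replicate 3 or without cilengitide replicate 1, 2 or 3. Leukocyte markers were called lower for 3 of 5 genes, with a sum of 321 to 838 CPM on cilengitide, and basal keratinocyte markers higher for 1 of 4, with a sum of 16206 to 26916 CPM. None of the 7 fibroblast, 5 endothelial and 6 mural markers was called. All of them had negative log2 fold changes, with medians of -0.96, -0.65 and -0.79, beside -0.06 for all genes. Cilengitide replicates 2 and 3 had Xist at 187 and 137 CPM, and no Col5a1CKO vehicle wound exceeded 1.56 CPM. The GC difference was -0.21 to 0.11 on cilengitide and -0.58 to -0.30 on vehicle. The part of these cells, of sex and of the GC difference was not tested.

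The cilengitide wounds were also set against the same 4 WT vehicle wounds. Itga5 (log2 fold change 1.48, SE 0.35, adjusted p = 0.0289) and Itgb1 (1.26, SE 0.29, adjusted p = 0.0267) were higher, the 2 members called, where 5.15% of 15515 genes were called higher. Itga5, Itga8 and Itgb1 did not overlap between these groups, as 14.5% of tested genes did not in this direction. Itga1 had a log2 fold change of 0.90 (SE 0.64, adjusted p = 0.316), and its cilengitide values overlapped with those of the WT wounds. Leukocyte markers were called higher for 4 of 5 genes here too, and their part was not tested. Both calls were lost without WT replicate 3 or without cilengitide replicate 2, 3 or 4 (adjusted p = 0.0603 to 0.0725). Those fits called few genes higher, 87 without WT replicate 3 and 3, 1 and 1 without cilengitide replicates 2, 3 and 4. With all libraries 799 genes were called higher.

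The make-up of the alpha subunits was described from RPKM, with no test. Itga5 made up most of the summed RNA of the 6 alpha chains in each group by mean, 60.1% ± 13.8 (SD, n = 7) in the WT and 70.7% ± 9.01 (SD, n = 7) in the Col5a1CKO wounds of day 14. On vehicle the share was 61.5% ± 11.1 (SD, n = 4) for WT and 78.1% ± 8.19 (SD, n = 4) for Col5a1CKO mice, and on cilengitide 70.8% ± 5.94 (SD, n = 4). The ranges of the Itga5 share overlapped between the genotypes in both experiments. At day 14 the share also differed between the library sets. In the WT wounds it was 43.1 to 53.7% in the lower and 72.0 to 77.6% in the upper set. In the Col5a1CKO wounds it was 56.4 to 76.1% in the lower and 76.7 to 81.1% in the upper set. The ratio of the collagen-binding to the RGD-binding alpha chains was 0.64 ± 0.29 in day 14 WT, 0.39 ± 0.17 in day 14 Col5a1CKO, 0.63 ± 0.27 in WT vehicle and 0.27 ± 0.13 in Col5a1CKO vehicle wounds (SD over libraries), and at most 0.995 in a wound, so that the RGD-binding chains were the more abundant in all 35. In day 14 WT wounds this ratio was 0.78 to 0.995 in the lower and 0.28 to 0.38 in the upper set. In day 14 Col5a1CKO wounds it was 0.29 to 0.71 in the lower and 0.22 to 0.29 in the upper set. Itga11 lay above Itga1 in every wound of 7 groups, but in Col5a1CKO vehicle wounds 3 and 4 it made up 5.99% and 2.19% against 9.79% and 6.88% for Itga1, and its mean share there rested on 21.8% in replicate 2. Its share was 26.0% ± 11.2 (SD, n = 3) in the WT and 24.1% ± 2.21 (SD, n = 3) in the Col5a1CKO wounds of day 19. Summed over the alpha chains, the level was 32.4 ± 15.9 RPKM in day 14 WT and 95.5 ± 30.4 RPKM in day 14 Col5a1CKO wounds, and 31.1 ± 18.8 and 135 ± 21.9 RPKM on vehicle.

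**Figure D4:**
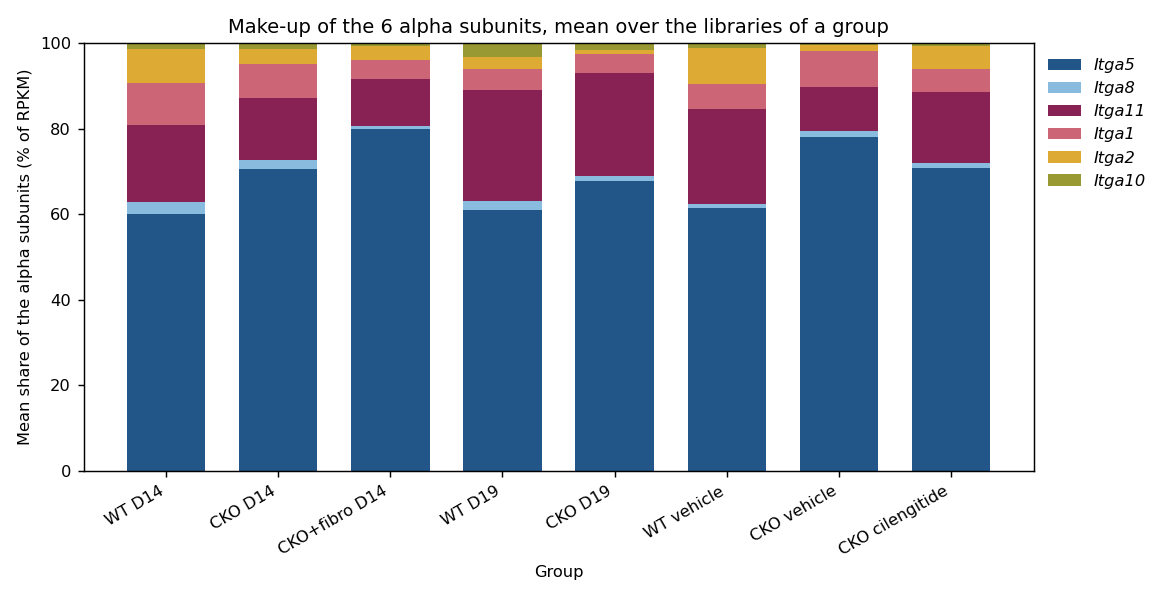
Mean share of each of the 6 alpha subunits in their summed normalized RPKM, as stacked bars from 0 to 100% for the 8 groups. Itga5 is the largest block in each bar, from 60.1% in day 14 WT to 79.9% in fibroblast-treated Col5a1CKO wounds, and Itga11 is the next largest by mean, close to Itga1 in the Col5a1CKO vehicle wounds at 10.3% and 8.56%. The day 14 WT and untreated Col5a1CKO bars pool both library sets, whereas the fibroblast-treated wounds all belonged to the upper set.

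Across wounds the members fell into different company. Likeness was measured by Pearson's r of log2(CPM + 1), over the 12 wounds of the cilengitide table and over the 23 of the other table after the mean of each library set was removed. These wounds share their groups, so that a shared group difference gives a high r, and no test was made. Itga5 and Itgb1 had r of 0.981 and 0.924, Itga1 and Itga5 0.934 and 0.926, and Itga1 and Itgb1 0.898 and 0.906. Itga2 stood apart from Itga5 (r of -0.02 and -0.01) and Itga1 (-0.15 and 0.01). Among 11493 genes, those most like Itga2 included Lama3 (0.895 and 0.825), which encodes a laminin chain of the epidermal basement membrane, and Itga3 (0.784 and 0.783), an alpha chain of laminin receptors. Those most like Itga11 were the type I collagen gene Col1a2 (0.958 and 0.979), Col16a1 and Ttc28. For Itga10 they were Adcy6, the endothelial von Willebrand factor gene Vwf (0.832 and 0.809) and Nlgn2. For Itgb1 they were Gfpt1 (0.980 and 0.949) and the tenascin genes Tnn and Tnc (0.952 and 0.948), and for Itga5 Gpr176, Steap2 and Flna (0.960 and 0.958), the gene of filamin A. For Itga1 they were Golm1, Arhgap31 and 4930402H24Rik, and for Itga8 Gria3, Dmwd and Kdelc1.

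Of the 6 other alpha chains listed with beta 1, 2 rose at day 14 in Col5a1CKO wounds, Itga9 (log2 fold change 1.70) and Itga4 (1.47). On vehicle 3 rose, Itga9 (1.94), Itga4 (1.79) and Itgav (1.49), and the epidermal Itga3 fell (-1.80). None was called on cilengitide, where Itga9 was -0.87 and Itgav -0.82, nor at day 19 between the genotypes or after fibroblast transfer. In the last 2 comparisons edgeR called 0.0198% of 15136 and 0% of 15660 genes. Of 12 ligand genes, 4 rose at day 14, led by Tnc, which encodes tenascin-C (3.01), and the basement membrane collagens Col4a2 (1.90) and Col4a1 (1.66). Fibronectin itself, Fn1, rose at day 14 (1.5) and on vehicle (1.66), the ligand of the member called in both. On vehicle 3 ligands rose, led by Spp1, the osteopontin gene (6.20), and Tnc (3.21), and Lama1 fell (-1.85). On cilengitide Spp1 fell (-2.92) and Lama1 rose (2.54). Nephronectin, Npnt, the ligand of alpha 8, had log2 fold changes of -0.04 at day 14 and -0.62 on vehicle and passed in neither. The median log2 fold change of the ligands was 1.32 at day 14 and 1.08 on vehicle, beside -0.03 and 0.02 for all genes.

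Of 4 tested genes for other collagen receptors, the epithelial Ddr1 fell (-3.15), and Lair1 of leukocytes (2.56) and the fibrillar collagen receptor Ddr2 (1.11) rose on vehicle. On cilengitide Ddr1 rose (2.26) and Lair1 fell (-1.30), and none of the 4 was called at day 14. Of 23 tested adaptors and kinases of integrin adhesions, 8 rose at day 14, led by Parvb (1.78), Zyx (1.46) and Tns3 (1.40), and 15 on vehicle, led by Parvb (2.57), Zyx (2.15) and the kindlin gene Fermt2 (2.08). None fell in either comparison. On cilengitide 6 fell, led by the leukocyte kindlin gene Fermt3 (-1.45), Parvg (-1.29) and Parvb (-1.28), and none rose. At day 19 none of the 23 was called between the genotypes, where Bcar1 (0.98) and Tln2 (1.37) had the smallest p. Of all 15136 genes tested there 0.0198% were called. None of the 23 was called in fibroblast-treated against untreated Col5a1CKO wounds, where 0% of 15660 genes were. Against day 14 WT wounds 9 of the 23 were called higher with fibroblasts (median log2 fold change 1.26), beside 3.77% of 15318 genes. The Col5a1CKO vehicle wounds stand in both of their comparisons, so the values with and without cilengitide are not independent.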

How the data were processed

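The authors deposited raw counts, without normalization, of single-end 50 bp reads of stranded libraries. The study's methods name Hisat2, mouse build NCBI37/mm9 and SeqMonk on RefSeq exons, and for the cilengitide table these steps are not stated apart. That table gave counts by symbol, the other by RefSeq transcript with its length. Of 29082 transcript rows the one with most counts was kept per symbol, and each member had 1 row. Members, gene lists and marker lists were chosen with earlier results of these data known. Groups followed the sample titles, which for day 19 differ from a treatment tag.

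Each pair of groups was tested within its table with edgeR 4.0.16 in R 4.3.3 (TMM scaling, filterByExpr at its minimum count of 10, quasi-likelihood F-test with robust dispersion) over all genes that passed. All 7 members passed in each comparison. A call was an adjusted p under 0.05 and at least 2-fold. The study describes its replicates as biological. Levels were TMM-normalized CPM over length in kb (RPKM), which joins 2 planned scales,, and the cilengitide table took lengths from the other. For the library sets, the median log2 level of the 10% of genes richest in GC minus that of the poorest 10% was taken per library, and the sets lie on either side of its widest gap. Positions are from GENCODE on NCBI37. The tests were tried on simulated counts. Named genes were the members, the deleted gene, up to 3 called genes per list and direction or, with none called, the 2 with the smallest p, and the 3 genes most like each member, of which 1 is not reported here. Alternatives were DESeq2 1.42.0, RLE scaling, library size only, no filter, other call limits, all groups in one fit, a replicate block, the longest transcript row, the library sets, and leaving out each library. Python 3.11.15, numpy 2.4.6, pandas 2.3.3 and matplotlib 3.10.9 served the rest.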

Additional observations from a re-analysis of the deposited data

Results flagged for a closer look

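In 35 groups of 4 or more libraries tested for a library far from the rest (7 members in 5 groups), 3 stood apart by Dixon's criterion, where chance flags about 1 in 20. In day 14 WT wounds Itga1 was 9.45 RPKM in replicate c, against 4.10 RPKM in the nearest other wound. In the same group Itga8 was 4.26 RPKM in replicate b, against 1.14 RPKM. In day 14 Col5a1CKO wounds Itga2 was 9.0 RPKM in replicate d, against 2.89 RPKM. Without WT replicate c, Itga1 was called higher in the day 14 Col5a1CKO wounds (a log2 value of 1.65 with adjusted p = 0.0387 in edgeR), and the call of Itga5 in that comparison was kept without any 1 library.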

How the results depend on the processing

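Settings are named once: unadjusted p under 0.05, DESeq2, RLE scaling, library size only as scaling, no filter, all groups in one fit, a replicate block, the upper library set only, and the library set as a covariate. An alternative without the block over the libraries with shared letters was added after the data were seen. The untreated day 14 libraries a, b and c were all of the lower set, whereas all fibroblast-treated and day 19 libraries were of the upper set. Where these were compared by shared letters, library set cannot be told apart from treatment or day. The log2 fold changes of the members gave 70 results with 1505 alternative values, and the counts of members called are not among these. Log2 fold changes with another direction follow, as do counts of members called that moved by more than 1.5 times. The cause was not tested except where fewer libraries entered by construction.

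The number of members called was 1 for day 14 Col5a1CKO against WT and became 3 unadjusted, 2 with DESeq2, 2 with all groups in one fit, 2 with the replicate block, 4 in the upper set and 3 with the set as covariate, with 1 to 2 when single libraries were left out. Genes called higher there numbered 800 in the main fit, 1446 unadjusted, 1245 with DESeq2 and 1519 with all groups in one fit. They numbered 757 with the replicate block, 1349 in the upper set and 1299 with the set as covariate. For day 19 the number of members was 0 and became 4 unadjusted and 4 with DESeq2 (0 to 1 with single libraries left out). Genes called higher numbered 3 in the main fit, 815 unadjusted, 684 with DESeq2 and 412 without WT replicate c. For fibroblast-treated against untreated Col5a1CKO the number of members was 0 and became 2 unadjusted, 1 with the replicate block and 3 over the same libraries without it. Genes called lower numbered 0 in the main fit, 854 unadjusted, 1125 with the block and 1412 without it. The last 2 fits used untreated replicates a, b and c, all of the lower set with Ddx3y at 205 CPM or more. The treated wounds were all of the upper set, with Xist at 280 CPM or more. Treatment, library set and sex cannot be told apart in these 2 fits. For fibroblast-treated against WT the number of members was 1 and became 5 in the upper set and 4 with the covariate. Genes called higher numbered 578 in the main fit, 2999 in the upper set and 1535 with the covariate. For day 19 against day 14 in WT the number of members was 0 and became 2 unadjusted, 2 with DESeq2, 1 with library size, 2 with all groups in one fit, 4 in the upper set and 3 with the covariate (0 to 1 with single libraries left out). Genes called higher numbered 227 in the main fit, 1052 unadjusted, 653 with DESeq2 and 719 with library size. They numbered 943 with all groups in one fit, 2134 in the upper set and 830 with the covariate. In Col5a1CKO over time the number of members was 1 and became 3 unadjusted, 2 with DESeq2, 0 with all groups in one fit, 2 with the replicate block and without it on the same libraries, 0 in the upper set and 2 with the covariate (0 to 1). Genes called higher numbered 287 in the main fit, 650 unadjusted, 504 with DESeq2 and 122 with all groups in one fit. They numbered 978 with the block and 1535 without it, 0 in the upper set and 117 with the covariate. For cilengitide against vehicle the number of members was 2 and became 3 with no fold minimum, 1 at 3-fold, 1 with library size and 1 with all groups in one fit (1 to 3). Genes called lower numbered 1025 in the main fit, 1900 with no fold minimum and 516 at 3-fold. They numbered 833 with library size and 1140 with all groups in one fit. For cilengitide against WT the number of members was 2 and became 0 at 3-fold (0 to 3), where genes called higher went from 799 to 381. The 4 calls on vehicle moved by no more than 1.5 times in any alternative, and the interaction stayed at 0.

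Itga5 at day 14 was called under every alternative (log2 fold change 1.80 to 2.06, and 1.76 to 2.07 with single libraries left out). Itga10 was called there with DESeq2 (1.59, adjusted p = 0.0289), with all groups in one fit (1.58, adjusted p = 0.0270) and without WT replicate b (1.95, adjusted p = 0.0461), and Itga1 with the replicate block (1.58, adjusted p = 0.0347). At day 19 Itga1 was called without WT replicate c (2.27, adjusted p = 0.0360). Between the days in WT, Itga5 was called without day 19 replicate b (1.65, adjusted p = 0.0415). On cilengitide against WT, Itga2 was called without WT replicate 2 (1.07, adjusted p = 0.0368) or cilengitide replicate 1 (1.0, adjusted p = 0.0393), and against vehicle Itga8 without vehicle replicate 4 (-1.06) or cilengitide replicate 3 (-1.0). With library size as the only scaling Itga5 had -0.95 on cilengitide, under 2-fold, and with all groups in one fit Itga1 had adjusted p = 0.0617.

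Sign changes, in log2 fold change, concerned members that were not called, unless said otherwise. Itga2 at day 14 had -0.35 with the replicate block, -0.44 in the upper set and -0.059 with the covariate. For fibroblast-treated against untreated Col5a1CKO, Itga5 had 0.041 with library size, 0.17 in the upper set and 0.12 with the covariate, Itga8 0.053 in the upper set, and upper set and covariate gave 0.11 and 0.035 for Itga10, 0.089 and 0.029 for Itga11 and 0.18 and 0.12 for Itgb1. Against WT, Itga1 had -0.54 with the replicate block and -0.57 on the same libraries without it, where Itga2 had -0.18. Itga8 had 3.0 in the upper set and 3.03 with the covariate, called in both. Itgb1 had -0.072 with DESeq2 and with RLE, -0.0070 without a filter, -0.11 with all groups in one fit, -0.71 with the block and -0.68 on the same libraries. For WT over time, Itga1 had 0.080 with DESeq2 and RLE, 0.083 without a filter, 0.35 with library size, and 2.04 and 2.03 in the upper set and with the covariate, where it was called. Itga8 had -0.66 on the libraries of the block, and Itgb1 0.68 in the upper set and with the covariate. For Col5a1CKO over time, block and the same libraries without it gave -0.093 and -0.12 for Itga1, 0.74 and 0.44 for Itga2 and -0.072 and -0.11 for Itga8, and upper set and covariate 0.54 and 0.45 for Itga2 and 0.68 and 0.62 for Itgb1. Itga10 on cilengitide against vehicle had 0.0004188 with RLE, 0.054 with library size and 0.042 without a filter. For the interaction, library size gave -0.059 for Itga1, -0.30 for Itga8, -0.19 for Itga11 and -0.077 for Itgb1, the upper set -0.81 for Itga1, -1.87 for Itga8, 0.14 for Itga10 and -0.94 for Itga11, and the covariate -0.24 for Itga8.

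Library size as the only scaling moved the median of all genes to 0.13 at day 14 (from -0.03), -0.39 at day 19 (from -0.01), 0.16 for fibroblast-treated against WT (from 0.03), 0.43 for WT over time (from 0.00) and -0.53 for the interaction (from -0.01). It moved the split of genes called higher and lower from 800 and 389 to 1018 and 246 at day 14, from 227 and 645 to 719 and 293 for WT over time, and from 1008 and 1025 to 1217 and 833 for cilengitide against vehicle.

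With single libraries left out, Itga2 ran from -0.73 to 0.37 at day 14 and from -0.58 to 0.064 on vehicle. Fibroblast-treated against untreated, Itga2 ran from -0.33 to 0.94 and Itga5 from -0.26 to 0.12. Against WT, Itga1 ran from -0.11 to 0.83, Itga2 from -0.14 to 0.72, Itga8 from -0.59 to 0.84 and Itgb1 from -0.32 to 0.22. Over time, Itga1 ran from -0.66 to 0.51 in WT and Itga2 from -0.46 to 0.51 in Col5a1CKO. On cilengitide against vehicle, Itga10 ran from -0.22 to 0.18 and Itga11 from -0.55 to 0.28. In the interaction, Itga1 ran from -0.14 to 1.11, Itga5 from -0.40 to 0.47, Itga8 from -1.07 to 0.40 and Itga11 from -0.27 to 1.27.

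The letters shared by groups were not taken as pairs, since in no comparison did every same-lettered pair of libraries correlate above 0.1 in its deviations. At day 14 the correlations ran from -0.45 to 0.57, 5 of 7 were above 0.1 and 1 of 7 libraries was closest to its own letter, and at day 19 all 3 lay from -0.41 to -0.32. For WT over time 2 of 3 were above 0.1 and 3 of 3 were closest to their own letter, a hint from the data only, and for fibroblast-treated against WT these counts were 2 and 2 of 3. Depth limited Itga8 and Itga10 most, with as few as 8 and 5 counts in a day 14 WT library.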
